A study of Papio anubis with 767 samples.

Results

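The putamen is one of the input nuclei of the basal ganglia, and its 12 libraries were set against the 12 of the lateral and the 12 of the medial globus pallidus, to which it projects. These 36 libraries are part of 767 that cover 64 tissues of the baboon Papio anubis (Papio anubis hamadryas in the protocol). The members were chosen by the tissue label alone, 12 libraries of the 767. By the labels, every library came from a male of 5 to 6 years and 7 to 11 kg, on a cycle of 12 h light, 12 h dark, with meals at fixed hours. One animal was collected at each of 12 times, every 2 h from ZT0 (lights on) to ZT22, and after a lethal dose of pentobarbital and perfusion with cold Ame's solution, tissue was punched from brain sections. The same animal gave all 3 tissues of a time, so tissues could be compared within animals, whereas time of day and animal cannot be told apart.

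Most neurons of the putamen are medium spiny neurons, GABA-releasing projection cells that receive glutamate from cortex and thalamus and dopamine from the substantia nigra. Those of the direct pathway carry the D1 dopamine receptor and substance P and project to the medial pallidum and nigra, and those of the indirect pathway carry the D2 receptor and enkephalin and project to the lateral pallidum. Both types read dopamine and adenosine through cyclic AMP, with DARPP-32 and the phosphodiesterase PDE10A as abundant components. The pallidum holds fewer, larger, fast-firing GABA neurons, and the fibre bundles that cross it are rich in myelin.

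Levels are FPKM, fragments per kilobase of transcript relative to sequencing depth, scaled between libraries by the authors, so levels of different genes are compared per length. The comparison of tissues asked which genes separate the putamen from its target. It used the difference of log2(FPKM + 0.5) between the putamen and the mean of both pallidal tissues in each animal, tested with limma over 12380 genes. Differences below are on this log2 scale, putamen minus pallidum, with the standard error and n = 12 animals; the added 0.5 makes them understate changes of low genes. A gene was called higher or lower at a Benjamini-Hochberg adjusted p under 0.05. The putamen libraries held 3.40 to 9.63 M reads on genes (median 7.49), those of the lateral pallidum 4.58 to 13.1 M (median 9.20) and those of the medial pallidum 4.13 to 13.6 M (median 10.1). Transcripts of the mitochondrial genome took 43.5 to 75.7%, 52.4 to 71.6% and 55.0 to 82.6% of these reads in the same order of tissues.

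Libraries that stood apart touch the results that follow. The putamen library of ZT18 had the highest level of the 12 in 3764 of 11866 genes (31.7%), against 19.5% for that of ZT2 and 12.3% for that of ZT6. Its median correlation with the other putamen libraries was 0.826, against 0.90 to 0.948 for the rest. The ZT18 library held 5.95 M reads on genes, 43.9% of them mitochondrial, against a putamen median of 66.6%. That of ZT4 had a similar share (43.5%), and the part of this share in the levels was not tested. In the lateral pallidum the summed level of 23 medium spiny neuron genes varied between 296 and 2867 FPKM, and 8 of its 12 libraries lay above every medial library. None of them reached the lowest putamen library. Without ZT18 the counts of higher and lower genes were the same for 26 of the 28 gene lists; the other 2, glutamate receptors and core clock genes, are given with both counts.

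The 3 marker genes bore out the label. PDE10A (ENSPANG00000019045), which breaks down cyclic AMP and cyclic GMP, was at 35.9 to 457 FPKM (median 81.5) in putamen, 0.497 to 55.4 FPKM (median 11.6) in lateral pallidum and 0.161 to 2.15 FPKM (median 0.785) in medial pallidum. The highest putamen value was that of ZT18; in the other 11 libraries PDE10A averaged 77.7 ± 29.2 FPKM (SD). The putamen range lay above the medial range and overlapped with the lateral one. Its difference was 4.74 ± 0.36, with an adjusted p of 3.0e-08 by limma, and it was higher in 12 of 12 animals. GPR52 (ENSPANG00000020058), a receptor that raises cyclic AMP, stood at 24.7 to 52.7 FPKM (median 31.1) in putamen, 0 to 12.0 FPKM (median 3.87) in lateral pallidum and 0 to 1.03 FPKM (median 0.248) in medial pallidum. No putamen library overlapped with any pallidal library, and the difference was 4.53 ± 0.31. GAD2 (ENSPANG00000023028), which makes GABA, had the narrowest spread of the markers, 176 to 238 FPKM (median 220.3) in putamen, against 32.5 to 88.7 FPKM (median 53.3) in lateral and 8.63 to 80.4 FPKM (median 24.8) in medial pallidum. Its libraries did not overlap either, and all 3 markers had their highest mean of 22 brain tissues in the putamen.

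Across all genes, 3369 of 12380 were higher in putamen (27.2%) and 5524 lower (44.6%), with a median difference of -0.19. Requiring at least a 2-fold difference left 1157 higher genes (9.35%) and 2337 lower genes (18.9%). The balance depended on scaling: 37.9% of calls were higher with the authors' scaling, against 49.1% (4376 higher and 4545 lower, median difference -0.01) with factors recomputed from the 36 libraries as medians of ratios and 48.4% (4322 and 4611) with quantile scaling. Without ZT18 the counts were 3314 higher and 5733 lower. Because so many genes were called, counts of a gene group are read against these shares. In bulk tissue, fewer cells of a type and less RNA per cell cannot be told apart.

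Medium spiny neuron signalling genes were nearly all higher in the putamen. Of 24 listed genes 22 were tested, 20 were higher, none was lower, and the median difference was 2.67, against -0.19 over all genes. The count was the same without ZT18. Against the lateral pallidum alone the median of the 22 was 2.15 and against the medial pallidum alone 3.07. In 18 of them every putamen library lay above every medial library, a separation that 7.72% of all genes showed, and in 8 above every lateral library (4.15% of all genes). The putamen had the highest mean of 22 brain tissues for 19 of 23 listed genes, 1 of the 23 being too low to be tested. It held this place for 5.02% of all genes tested.

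**Figure D1:**
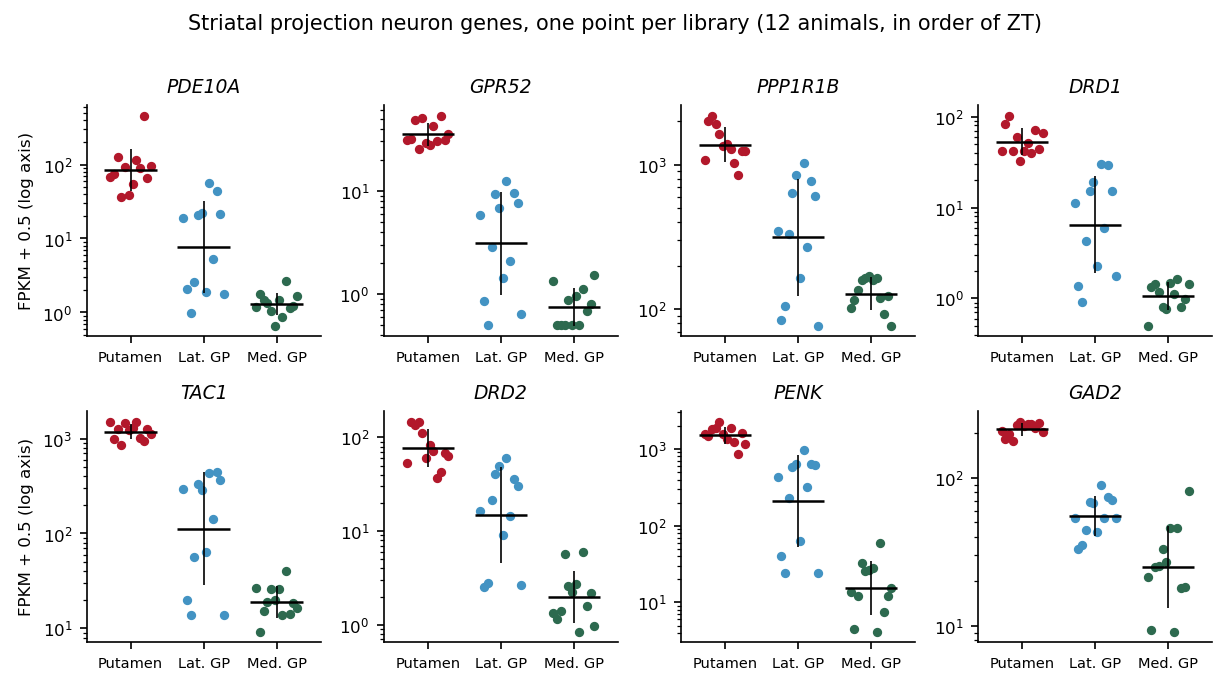
Levels of 8 genes of striatal projection neurons, as FPKM + 0.5 on log axes, in 12 putamen, 12 lateral and 12 medial pallidal libraries; each point is 1 library (1 animal), placed in order of ZT, the bar is the mean and the line the SD of the log2 values. Putamen libraries lie highest on average, medial pallidal libraries lowest, and lateral pallidal libraries spread between them, from 23.6 to 958 FPKM for PENK.

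PPP1R1B (ENSPANG00000021819), which encodes DARPP-32, a phosphatase inhibitor switched by dopamine, was at 850.5 to 2189.9 FPKM (median 1322) in putamen, 76.6 to 1038 FPKM (median 339) in lateral pallidum and 76.4 to 170.1 FPKM (median 129) in medial pallidum. All putamen libraries lay above all medial ones, and the highest lateral library, that of ZT14, reached into the putamen range. Its difference was 2.78 ± 0.26 (2.14 against lateral and 3.43 against medial pallidum). The olfactory-type G protein GNAL, which couples the receptors DRD1 and ADORA2A to cyclase, was at 12.5 to 93.9 FPKM (median 29.1) in putamen, 1.73 to 14.4 FPKM (median 4.86) in lateral and 1.03 to 4.43 FPKM (median 1.85) in medial pallidum, a difference of 2.96 ± 0.19. The cyclase it drives, ADCY5, separated the tissues less, at 1.24 ± 0.24, with 13.0 to 82.9 FPKM in putamen, 7.73 to 40.0 FPKM in lateral and 4.51 to 16.3 FPKM in medial pallidum. Cyclase levels thus overlapped between putamen and both pallidal tissues, which those of PPP1R1B and GNAL did with the lateral pallidum only.

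PDE1B, a calcium-activated phosphodiesterase, was higher by 4.46 ± 0.35, with 219 to 496 FPKM (median 292) in putamen, against 5.26 to 195 FPKM (median 48.2) in lateral and 1.41 to 12.4 FPKM (median 4.12) in medial pallidum. PDE7B rose by 2.52 ± 0.17 and PDE2A by 1.45 ± 0.21. RGS9, which speeds the shut-off of G proteins, was at 115 to 266 FPKM (median 165) in putamen, 3.11 to 91.0 FPKM (median 22.2) in lateral and 1.97 to 6.36 FPKM (median 3.73) in medial pallidum, and its ranges did not overlap. RASD2, the striatal small GTPase Rhes, rose by 4.50 ± 0.39 and the tyrosine phosphatase PTPN5 (STEP) by 3.41 ± 0.33. These 6 genes were higher in putamen in 12 of 12 animals, and all but PDE2A had their highest brain mean there.

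The most evenly expressed members were SCN4B, a sodium channel subunit, KCNIP2, a partner of Kv4 potassium channels, and ARPP21, a phosphoprotein regulated by cyclic AMP. Their coefficients of variation over the 12 putamen libraries were 11.4%, 11.7% and 12.2%, against a median of 40.5% for the 22 genes. SCN4B was at 349 to 465 FPKM in putamen, 35.2 to 192 FPKM in lateral and 37.2 to 54.3 FPKM in medial pallidum, with a difference of 2.66 ± 0.17. KCNIP2 and ARPP21 differed by 2.68 ± 0.16 and 2.70 ± 0.19. The difference of the G protein subunit GNG7 (0.98 ± 0.24) was no longer called against the lateral pallidum alone. Of the 22 genes, 9 had their highest putamen level at ZT18, 6 at ZT2, 6 at ZT4 and 1 at ZT22.

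Calcium-linked members also rose: CAMK4, a nuclear calmodulin kinase, by 2.94 ± 0.19, the IP3 receptor ITPR1 by 1.65 ± 0.15 and the actin crosslinker ACTN2 by 3.57 ± 0.27. RASGRP2, an activator of Rap1, rose by 1.91 ± 0.21 and PRKAR2B, a regulatory subunit of protein kinase A, by 2.05 ± 0.13. The scaffold STRN did not pass, with 6.80 to 54.2 FPKM (median 10.1) in putamen, 5.74 to 13.3 FPKM (median 9.26) in lateral and 4.39 to 16.1 FPKM (median 9.11) in medial pallidum (0.32 ± 0.16, adjusted p = 0.083 by limma). The putamen ZT18 library supplied its highest value, and without it the difference of STRN was 0.18. STRN was called higher under 5 of 25 alternatives: median-of-ratios, quantile and non-mitochondrial scaling, voom on recovered reads, and without ZT2.

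**Figure D2:**
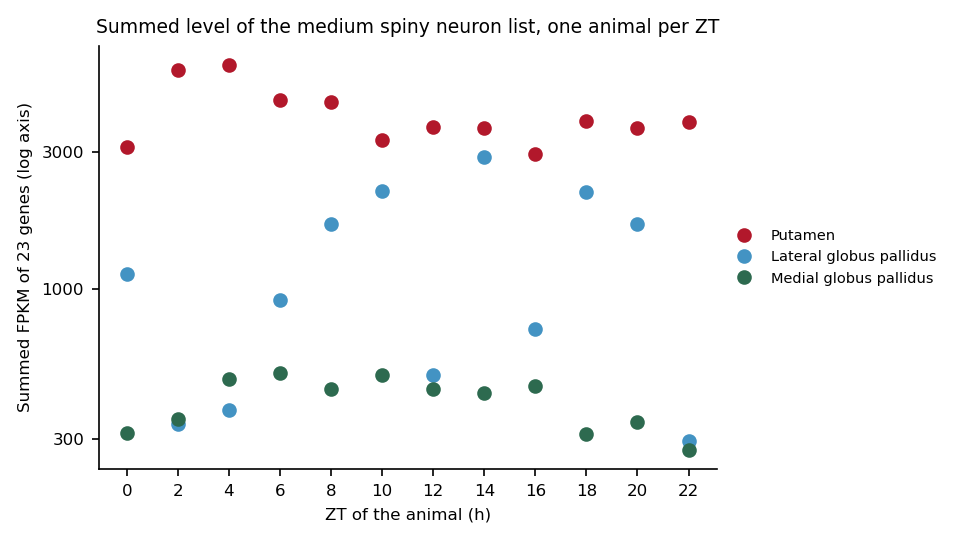
Summed FPKM (log axis) of 23 medium spiny neuron genes in each putamen, lateral and medial pallidal library, by the ZT (h) of the animal; each point is 1 library. The sum was 2953 to 6018 FPKM in putamen, 296 to 2867 FPKM in lateral pallidum and 276 to 510.2 FPKM in medial pallidum.

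The direct-pathway genes were higher in the putamen for 6 of 7 tested (median difference 2.33) and the indirect-pathway genes for 5 of 5 (median 3.83). DRD1 (ENSPANG00000017071), the D1 receptor, was at 32.0 to 102 FPKM (median 47.3) in putamen, 0.411 to 29.5 FPKM (median 8.16) in lateral and 0 to 1.14 FPKM (median 0.653) in medial pallidum. TAC1 (ENSPANG00000005012), the precursor of substance P, was at 853 to 1499 FPKM (median 1248) in putamen, 13.4 to 441 FPKM (median 215) in lateral and 8.69 to 39.5 FPKM (median 18.4) in medial pallidum. Neither gene's putamen range overlapped with a pallidal one, and the differences were 4.33 ± 0.33 and 4.67 ± 0.35. SLC35D3, a transporter of D1 neurons in mice, and ISL1, a transcription factor of this lineage in mice, rose by 2.27 ± 0.15 and 2.08 ± 0.10. CHRM4, the M4 muscarinic receptor, rose by 2.33 ± 0.34. PDYN, the dynorphin precursor, was at 9.26 to 35.4 FPKM (median 23.7) in putamen, 0.393 to 39.0 FPKM (median 20.6) in lateral and 0.381 to 13.7 FPKM (median 1.01) in medial pallidum. Its difference of 2.38 ± 0.25 was called against the medial pallidum alone but not against the lateral one (1.15), and its putamen mean was 12th among 22 brain tissues.

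On the indirect side, DRD2 was at 36 to 146 FPKM (median 69.2) in putamen, 2.02 to 60.3 FPKM (median 18.5) in lateral and 0.342 to 5.47 FPKM (median 1.41) in medial pallidum. PENK (ENSPANG00000015057), the enkephalin precursor, was at 869 to 2256 FPKM (median 1575) in putamen, 23.6 to 958 FPKM (median 372) in lateral and 3.63 to 59.5 FPKM (median 14) in medial pallidum. PENK separated the putamen from the medial pallidum by 6.64, a larger difference than that of any other listed gene, and from the lateral pallidum by 2.86. The adenosine receptor ADORA2A ran from 21.9 to 194 FPKM in putamen, 1.23 to 84.1 FPKM in lateral and 0.203 to 3.6 FPKM in medial pallidum, with a difference of 3.32 ± 0.45. GPR6, an orphan receptor of D2 neurons, rose by 2.98 ± 0.39. For DRD2, ADORA2A and GPR6 the highest putamen library was that of ZT2 and the lateral range reached into the putamen range. All 5 genes had their highest brain mean in the putamen, against 3 of the 7 direct-pathway genes.

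Most tested receptors for dopamine, acetylcholine, opioids, cannabinoids and histamine were also higher. Of 25 listed receptors, some of them also on the pathway lists, 13 stayed below a mean of 1 FPKM and 11 were tested: 9 were higher, 1 was lower, and the median difference was 2.44. The cannabinoid receptor CNR1 was at 5.59 to 68.6 FPKM (median 17.9) in putamen, 0 to 10.5 FPKM (median 2.18) in lateral and 0 to 2.36 FPKM (median 0.422) in medial pallidum (3.25 ± 0.23). The kappa opioid receptor OPRK1 rose by 2.74 ± 0.20, the M1 muscarinic receptor CHRM1 by 2.44 ± 0.33 and the histamine H3 receptor HRH3 by 2.43 ± 0.21. ADORA1, the inhibitory adenosine receptor, went the other way, at 7.13 to 29.5 FPKM (median 12.8) in putamen, 22.3 to 62.3 FPKM (median 43.9) in lateral and 18 to 66.1 FPKM (median 40.1) in medial pallidum. ADORA1 was lower in putamen in 12 of 12 animals (-1.47 ± 0.14), so ADORA2A and ADORA1 transcripts differed in opposite directions. The mu and delta opioid receptors OPRM1 and OPRD1 were at 0 to 1.10 FPKM and 0 to 0.600 FPKM in putamen and were not tested.

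GABA synthesis and transport genes were split, with 3 of 6 higher and 3 lower. GAD2, the vesicular transporter SLC32A1 and GAD1 rose by 2.52, 1.60 ± 0.24 and 0.79 ± 0.21. GAD1, the other GABA-making enzyme, was at 21.7 to 51.5 FPKM (median 32.2) in putamen, 15.1 to 40.6 FPKM (median 25.8) in lateral and 4.87 to 59.4 FPKM (median 12.8) in medial pallidum, so its ranges overlapped where those of GAD2 did not. Among the lower genes, SLC6A11 (ENSPANG00000009913), the GABA transporter GAT-3 of astrocytes, was at 3.21 to 8.39 FPKM (median 6.32) in putamen, 60.5 to 134 FPKM (median 96.3) in lateral and 101 to 209 FPKM (median 173) in medial pallidum. Its ranges did not overlap and the difference was -4.25 ± 0.15. ABAT, the GABA transaminase, fell by 1.36 on the log2 scale, with 18.3 to 63.3 FPKM in putamen, 54.6 to 83.6 FPKM in lateral and 74.8 to 139.9 FPKM in medial pallidum.

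Among GABA-A receptor subunits 9 of 11 were higher and 2 lower, with a median of 1.65. GABRA4, the alpha4 subunit of extrasynaptic receptors, was at 11.9 to 75.9 FPKM (median 16.7) in putamen, 0.466 to 6.71 FPKM (median 2.16) in lateral and 0 to 0.858 FPKM (median 0.430) in medial pallidum (3.66 ± 0.22), and its ranges did not overlap. GABRD, the delta subunit with which alpha4 assembles, rose by 2.09 ± 0.36, GABRB2 by 2.04 ± 0.23 and GABRA2 by 1.73 ± 0.13. GABRA5 rose by 1.32 ± 0.20, which was not called against the lateral pallidum alone. The epsilon subunit GABRE fell by 1.57, with 0.376 to 4.22 FPKM in putamen, 3.40 to 10.7 FPKM in lateral and 3.09 to 13.5 FPKM in medial pallidum. GABRA3 fell by 0.43, a call lost with median-of-ratios and quantile scaling.

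Glutamate receptors and proteins of the postsynaptic density rose for 16 of 18 tested genes, with 1 lower and a median of 1.48. HOMER1, a scaffold that links metabotropic receptors to calcium stores, was at 23.7 to 69.6 FPKM (median 43.7) in putamen, 2.27 to 15.6 FPKM (median 7.08) in lateral and 2.34 to 5.60 FPKM (median 2.82) in medial pallidum (3.22 ± 0.14). CAMK2A, the alpha subunit of calmodulin kinase II, was at 123 to 185 FPKM (median 145) in putamen, 5.17 to 93.5 FPKM (median 41.3) in lateral and 1.42 to 12.3 FPKM (median 3.86) in medial pallidum (3.73 ± 0.25). Neither putamen range overlapped with a pallidal one. AMPA receptor subunits diverged: GRIA3, GRIA1 and GRIA2 rose by 2.78 ± 0.10, 2.45 ± 0.17 and 1.48 ± 0.11, while GRIA4 fell by 0.96, with 2.12 to 3.97 FPKM in putamen, 2.56 to 8.22 FPKM in lateral and 5.89 to 9.67 FPKM in medial pallidum. For GRIA4 the putamen had the lowest mean of 22 brain tissues.

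NMDA receptor subunits GRIN1 and GRIN2A rose by 2.15 ± 0.23 and 2.21 ± 0.22, and the density scaffold DLG4 (PSD-95) by 1.76 ± 0.20. GRIN2B was at 0.305 to 25.3 FPKM (median 1.05) in putamen, with its highest value at ZT18, and at 0.113 to 1.59 FPKM in lateral and 0 to 0.345 FPKM in medial pallidum. Without ZT18 GRIN2B was below the filter on low levels, the kainate receptor GRIK3 was not called, and the list had 14 higher genes and 1 lower gene. The metabotropic receptors GRM4, GRM5 and GRM3 rose by 2.25 ± 0.13, 1.31 ± 0.21 and 0.78 ± 0.08. GRM3 was the most even of them, at 81.2 to 103 FPKM in putamen, 51.3 to 89.7 FPKM in lateral and 28.5 to 68.1 FPKM in medial pallidum, with its highest brain mean in the putamen.

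**Figure D3:**
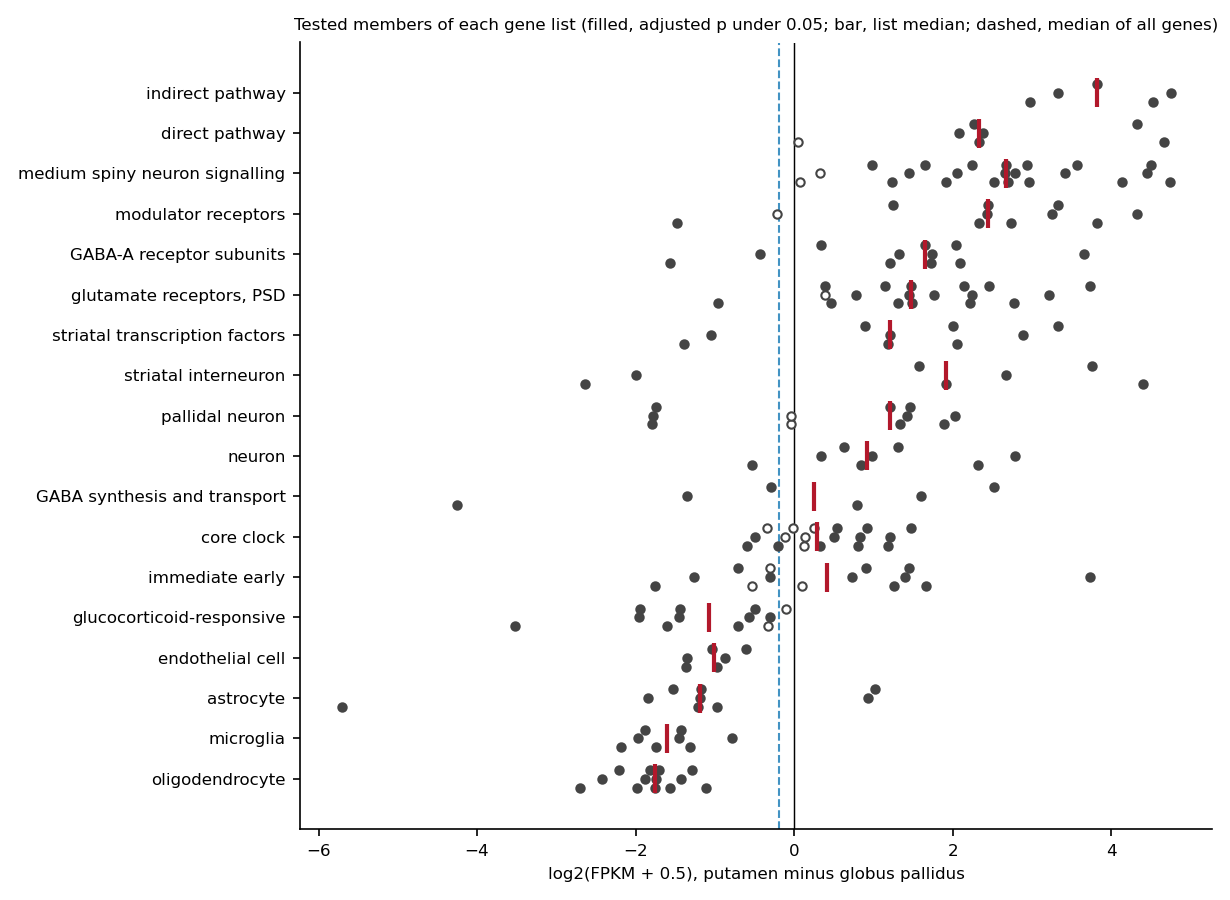
Difference of log2(FPKM + 0.5), putamen minus globus pallidus (x axis), for the tested members of 18 gene lists (rows); each point is 1 gene, filled where called at an adjusted p under 0.05, the red bar is the list's median and the dashed line the median of all genes (-0.19). Projection neuron and receptor lists lie mostly above 0 and glial lists below it, apart from 2 astrocyte genes.

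Transcription factors of striatal neurons gave 7 higher and 2 lower genes of 9 tested. RARB, a retinoic acid receptor, was at 17.0 to 41.9 FPKM (median 25.4) in putamen, 0.576 to 11.8 FPKM (median 4.32) in lateral and 0.626 to 2.16 FPKM (median 1.35) in medial pallidum (3.32 ± 0.21), with no overlap. Its partner RXRG was at 67.3 to 155 FPKM (median 102) in putamen, 5.03 to 82.7 FPKM (median 20.7) in lateral and 4.13 to 18.1 FPKM (median 7.08) in medial pallidum (2.89 ± 0.16), and lateral libraries reached into the putamen range. MEIS2, SIX3 and FOXP1, which mark striatal precursors and projection neurons in mice, rose by 2.06 ± 0.17, 2.00 ± 0.24 and 1.21 ± 0.17. SOX8 and ID4 fell by 1.05 and 1.39; SOX8 is also a gene of oligodendrocytes in mice. BCL11B (CTIP2), a standard marker of these neurons in mice, had a median of 0.644 FPKM in putamen and stayed below the filter.

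Interneuron genes were split as well, 5 of 7 being higher and 2 lower. NPY, carried by somatostatin interneurons, was at 70.9 to 151 FPKM (median 91.9) in putamen, 1.40 to 31.4 FPKM (median 14.5) in lateral and 0.239 to 5.46 FPKM (median 1.28) in medial pallidum (4.40 ± 0.32). PTHLH, found in fast-spiking interneurons in mice, was at 14.3 to 25.2 FPKM (median 17.7) in putamen, 0.248 to 7.23 FPKM (median 2.24) in lateral and 0 to 0.791 FPKM (median 0.261) in medial pallidum (3.76 ± 0.25), with no overlap. Somatostatin itself (SST) rose less, by 1.92 ± 0.20, VIP by 2.68 ± 0.20 and the nitric oxide synthase NOS1 by 1.58 ± 0.27, whose ZT18 level of 21.9 FPKM compares with a putamen median of 1.87 FPKM. TAC3 (neurokinin B) and CALB2 (calretinin) fell. TAC3 was at 4.20 to 20.7 FPKM (median 12.7) in putamen, 15.7 to 177 FPKM (median 80.1) in lateral and 15.6 to 428 FPKM (median 81.0) in medial pallidum (-2.64 ± 0.39), and CALB2 differed by -2.0 ± 0.17. Of the cholinergic genes, CHAT and SLC18A3 had medians of 0.514 and 0.317 FPKM in putamen and were not tested; of the 3 that were tested, NGFR, a neurotrophin receptor, fell by 1.78 and TRH, a peptide that is also on the hypothalamic list, rose by 0.66 ± 0.18.

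Genes listed for pallidal neurons did not move as a group, with 6 of 11 tested higher in the putamen, 3 lower and 2 not called. PVALB (parvalbumin), a calcium buffer of fast-firing neurons, was at 28.2 to 65.2 FPKM (median 42.8) in putamen, 53.4 to 263 FPKM (median 157) in lateral and 45.0 to 350.2 FPKM (median 178) in medial pallidum (-1.79 ± 0.17). SPP1 (osteopontin) was at 270.1 to 510.2 FPKM (median 363) in putamen, 820.0 to 1528 FPKM (median 1326) in lateral and 944 to 1762 FPKM (median 1089) in medial pallidum (-1.74 ± 0.12). The heavy neurofilament NEFH fell by 1.78 in 12 of 12 animals. The higher genes included LHX8 (1.90 ± 0.21), KCNA1 (2.04 ± 0.21), SYT2 (1.46 ± 0.15), SCN1A (1.42 ± 0.20) and NEFM (1.34 ± 0.13), a developmental regulator of forebrain neurons, a potassium channel, a vesicle protein, a sodium channel and the medium neurofilament. Pallidal regulators of mice such as NKX2-1, LHX6 and NPAS1 had putamen medians of at most 0.268 FPKM and were below the filter in this comparison.

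Markers of the other cell types that a punch could hold moved with these results. General neuron markers were higher in the putamen for 7 of 8, SNAP25 by 1.31 ± 0.15, SYT1 by 2.32 ± 0.16 and RBFOX3 by 2.79 ± 0.31, and the summed level of the 8 was 960.3 to 1845 FPKM in putamen, 488 to 996 FPKM in lateral and 236 to 834 FPKM in medial pallidum. The exception was ELAVL4, called lower at -0.53 ± 0.20, a call lost with median-of-ratios and quantile scaling, against the medial pallidum alone, without pairing and without ZT2, ZT6, ZT10 or ZT22. The summed level of 13 oligodendrocyte markers was 1482 to 2523 FPKM in putamen, 4984 to 8542 FPKM in lateral and 6125 to 10005 FPKM in medial pallidum. The summed neuron and oligodendrocyte markers thus differed in opposite directions between the tissues. The part of cell content in the results on neuronal genes was not tested.

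All 13 oligodendrocyte genes were lower in the putamen, with a median of -1.75. MOBP (ENSPANG00000015170), a basic protein of myelin, was at 159 to 347 FPKM (median 235) in putamen, 750.0 to 1420.4 FPKM (median 919.8) in lateral and 839 to 2375 FPKM (median 1524) in medial pallidum (-2.21 ± 0.13). MAG and CNP, proteins of non-compact myelin, fell by 2.70 and 2.42. In 8 of the 13 every putamen library lay below every medial library, which 7.06% of all genes showed, and in 11 below every lateral library (5.07% of all genes). Precursor markers fell for 3 of 3 tested, SOX10 by 2.70 and OLIG2 by 2.31, and PDGFRA by 0.51, the last not called against the lateral pallidum alone.

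Astrocyte genes were the least uniform of the glia, with 7 of 9 lower and 2 higher. GFAP (ENSPANG00000021287), the intermediate filament of astrocytes, had the largest difference of the listed genes, at 5.70 to 21.0 FPKM (median 12.5) in putamen, 242 to 908 FPKM (median 548) in lateral and 291 to 1409 FPKM (median 843) in medial pallidum. The difference was -5.71 ± 0.24, lower in 12 of 12 animals, and the putamen mean of GFAP was the lowest of 22 brain tissues. S100B was at 666 to 1361 FPKM (median 964) in putamen, 2105 to 4658 FPKM (median 2988) in lateral and 2708 to 5592 FPKM (median 4028) in medial pallidum (-1.85 ± 0.11), and the water channel AQP4 fell by 1.53. Both main glutamate transporters went the other way: SLC1A3 was at 262 to 571 FPKM (median 428) in putamen, 138 to 376 FPKM (median 206) in lateral and 163 to 266 FPKM (median 200.1) in medial pallidum (1.02 ± 0.08). SLC1A2 rose by 0.94 ± 0.23, and by 0.72 without ZT18, whose level of 324 FPKM compares with a putamen median of 41.3 FPKM. So within one marker list, transporters for glutamate were higher, while the filament, gap junction and water channel genes (GFAP, GJA1 and AQP4) were lower, as was the GABA transporter SLC6A11 of another list.

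**Figure D4:**
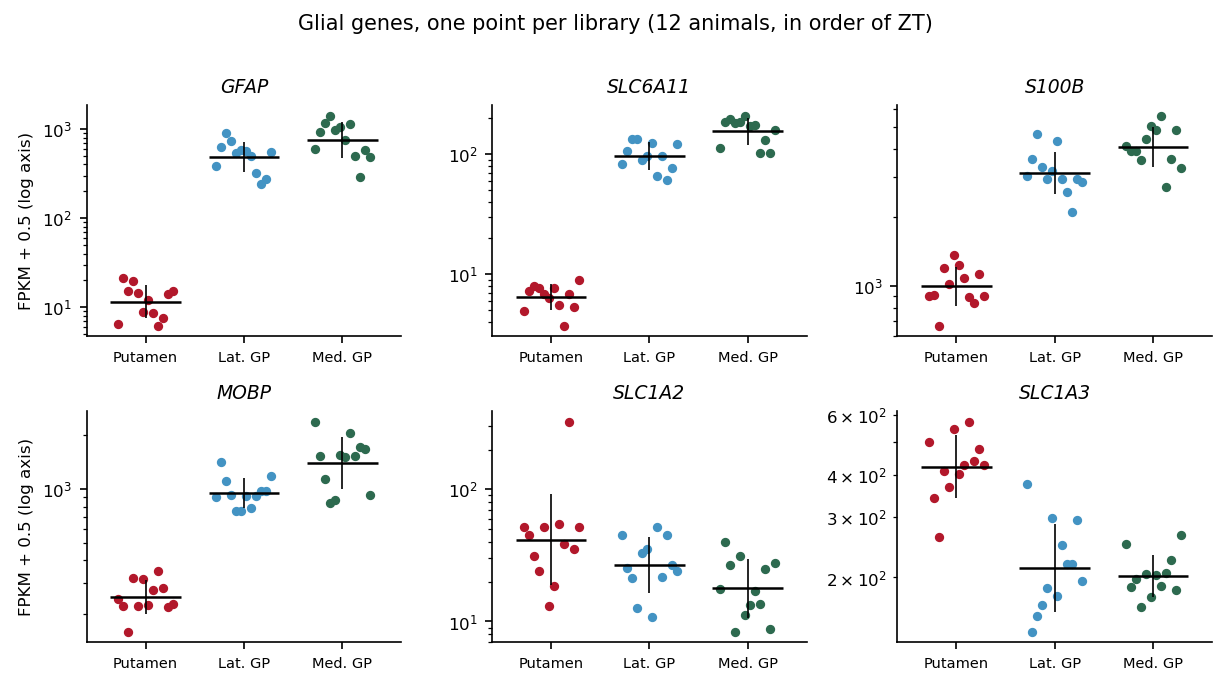
Levels of 6 glial genes, as FPKM + 0.5 on log axes, in 12 putamen, 12 lateral and 12 medial pallidal libraries; each point is 1 library (1 animal), placed in order of ZT, the bar is the mean and the line the SD of the log2 values. GFAP, SLC6A11, S100B and MOBP lie lower in every putamen library than in any pallidal library, while SLC1A3 lies higher on average (median 428 FPKM in putamen, 206 in lateral and 200.1 in medial pallidum).

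Microglial markers were lower for 8 of 8 (median -1.60) and endothelial markers for 6 of 6 (median -1.01). CSF1R, the receptor on which microglia depend, was at 2.67 to 7.92 FPKM (median 4.99) in putamen, 9.99 to 27.1 FPKM (median 15.4) in lateral and 13.5 to 57.4 FPKM (median 22.3) in medial pallidum (-1.89 ± 0.14). The complement gene C1QB fell by 2.18, and SLC2A1, the glucose transporter of the blood-brain barrier, by 1.36. Haemoglobin HBB was lower too (-1.29 ± 0.27). Markers of neighbouring structures did not all go one way. The 2 tested cortical and the 3 tested choroid plexus genes were lower in putamen, where the cortical glutamate transporter SLC17A7 was at 0.174 to 3.99 FPKM and the choroid plexus gene TTR at 0.0996 to 10.3 FPKM. The thalamic list, in contrast, summed to 16.1 to 36.8 FPKM in putamen, 11.8 to 21.6 FPKM in lateral and 9.85 to 42.8 FPKM in medial pallidum. Of its 3 tested genes the kinase PRKCD was higher (2.26 ± 0.21), at 13.5 to 33.1 FPKM in putamen, 2.21 to 15.0 FPKM in lateral and 1.92 to 5.82 FPKM in medial pallidum, with its highest brain mean in the putamen, while CALB2 was lower and RORA not called. Its glutamate transporter SLC17A6 was at 0 to 0.266 FPKM in putamen and below the filter. The hypothalamic list summed to 3.84 to 10.5 FPKM in putamen, 3.62 to 20.6 FPKM in lateral and 3.76 to 94.6 FPKM in medial pallidum, and of its 5 tested genes the peptides AVP, OXT and POMC were lower, TRH was higher and PMCH was not called. In medial pallidum SLC17A6 reached 12.9 FPKM and TTR 118 FPKM, both at ZT2. The part of these tissues in the results was not tested.

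Genes with the smallest p-values, at a level of at least 5 FPKM and a difference of at least 2, were named by rule, 12 in each direction. All 24 went the same way in 12 of 12 animals, which the choice by smallest p over the same animals made likely. Besides GRIA3 and HOMER1 the higher ones were GUCY1B3 (2.08 ± 0.08), a subunit of the nitric oxide receptor, the chaperone HSPH1 (2.35 ± 0.10), the ether lipid hydrolase NCEH1 (2.57 ± 0.10) and the purine salvage enzyme HPRT1 (2.19 ± 0.09). The remaining ones were the microtubule-linked WDR47 (2.01), the splicing factor CDC40 (2.02), LRRN1 (2.21), NCOA7 (2.23), SSX2IP (2.01) and KIAA1107 (2.10). HSPH1 was at 105 to 194 FPKM (median 153) in putamen, 20.4 to 75.9 FPKM (median 33.4) in lateral and 13.9 to 33.7 FPKM (median 22.8) in medial pallidum. Another heat shock chaperone, HSP90AA1, rose by 0.97 ± 0.06, to 939 to 1547 FPKM in putamen, against 526 to 824 FPKM in lateral and 501 to 887 FPKM in medial pallidum. The putamen had the highest brain mean for both, whereas 2 other heat shock genes were lower, DNAJB1 by 0.54 and HSPB1 by 1.84 on the log2 scale.

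On the lower side the rule named GFAP and SLC6A11, already given, and the matrix protein CCDC80, at 0.262 to 1.42 FPKM (median 0.596) in putamen, 8.13 to 23.5 FPKM (median 12.4) in lateral and 18.9 to 35.0 FPKM (median 26.8) in medial pallidum (-4.11 ± 0.20). DGKK, a diacylglycerol kinase, was at 0 to 0.139 FPKM in putamen, 1.51 to 6.92 FPKM in lateral and 4.12 to 12.8 FPKM in medial pallidum (-3.39 ± 0.14). The metalloproteinase inhibitor TIMP1 and the galectin LGALS1 fell by 3.39 and 3.08, STAC2 by 3.00 and PBXIP1 by 2.36. Node-of-Ranvier protein HAPLN2 (-2.39 ± 0.11), CMTM5 (-2.32 ± 0.11), TMEM98 (-2.45 ± 0.12) and the plexin PLXNB3 (-2.09 ± 0.10), genes of the oligodendrocyte lineage in mice, completed the 12. For DGKK, TIMP1, STAC2, PBXIP1 and CCDC80, as for GFAP, the putamen mean was the lowest of 22 brain tissues.

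Activity-regulated genes did not differ in one direction. Of 14 immediate early genes tested, 7 were higher, 4 lower and 3 not called. EGR1 (ENSPANG00000012366), a zinc finger factor induced by synaptic activity, was at 32.7 to 70.9 FPKM (median 50.7) in putamen, 0.765 to 14.1 FPKM (median 7.31) in lateral and 1.25 to 3.80 FPKM (median 1.51) in medial pallidum (3.73 ± 0.23), with no overlap. EGR2, NR4A3, EGR3 and FOSB rose by 1.67 ± 0.24, 1.46 ± 0.13, 1.40 ± 0.28 and 1.26 ± 0.12. JUN was at 1.59 to 18.2 FPKM (median 4.07) in putamen, 8.98 to 23.2 FPKM (median 17.7) in lateral and 8.85 to 22.7 FPKM (median 19.2) in medial pallidum (-1.75 ± 0.18), and BTG2 and NR4A2 fell by 1.27 and 0.71. FOS was at 0.0937 to 7.85 FPKM in putamen, 0.464 to 9.15 FPKM in lateral and 0.632 to 7.10 FPKM in medial pallidum (0.10 ± 0.15, adjusted p = 0.57 by limma). EGR1 and JUN thus differed in opposite directions in the same animals, while the FOS ranges of all 3 tissues overlapped.

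Glucocorticoid-responsive genes were lower for 10 of 12, with none higher and a median of -1.07; 9 of the 10 calls held with median-of-ratios scaling. FKBP5, a chaperone induced by the glucocorticoid receptor, was at 1.93 to 8.97 FPKM (median 4.48) in putamen, 6.60 to 22 FPKM (median 10.7) in lateral and 6.92 to 29.5 FPKM (median 14.8) in medial pallidum (-1.45 ± 0.14). TSC22D3 (GILZ) and KLF15 fell by 1.61 and 1.94, and SGK1 by 0.71. The metallothionein MT2A fell by 3.52 and MT1X by 1.96, over wide ranges (2.16 to 154 FPKM in putamen, 23.5 to 1247 FPKM in lateral and 17.9 to 1033 FPKM in medial pallidum for MT2A); reads of this family of near-identical genes may be divided uncertainly between members. Astrocytes and oligodendrocytes are known to express several genes of this list, and the summed astrocyte markers moved with them, at 1679.6 to 2698 FPKM in putamen, 3837 to 7364 FPKM in lateral and 4723 to 8714 FPKM in medial pallidum. The part of glial content in this result was not tested.

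Of 18 core clock genes tested, 9 were higher in putamen, 3 lower and 6 not called, where 27.2% of all genes were higher and 44.6% lower. With median-of-ratios scaling 12 clock genes were higher and 2 lower. Without ZT18 there were 9 higher and 2 lower clock genes, CRY1 being no longer called. PER2 (ENSPANG00000008425), a repressor of the clock loop, was at 3.26 to 7.03 FPKM (median 5.33) in putamen, 1.44 to 3.22 FPKM (median 2.17) in lateral and 1.18 to 2.53 FPKM (median 1.88) in medial pallidum, and every putamen library lay above every pallidal one (1.22 ± 0.07). Its paralogue PER1 was lower, at 0.988 to 8.16 FPKM (median 2.92) in putamen, 1.90 to 14.2 FPKM (median 4.81) in lateral and 1.72 to 12.7 FPKM (median 5.02) in medial pallidum (-0.49 ± 0.12), a call that needed the pairing of animals. NPAS2, the partner of ARNTL (BMAL1) in forebrain, rose by 1.19 ± 0.15, with 5.78 to 18.6 FPKM in putamen, 2.93 to 10.6 FPKM in lateral and 2.33 to 5.58 FPKM in medial pallidum. CLOCK, which takes the same place, rose by 0.51 ± 0.16 and ARNTL by 0.32 ± 0.08; CLOCK was not called without pairing. Output factors HLF, TEF and DBP rose by 1.47 ± 0.20, 0.92 ± 0.22 and 0.83 ± 0.16 and NFIL3 by 0.81 ± 0.10, of which TEF was not called against the lateral pallidum alone. Of the 2 related repressors, BHLHE40 rose by 0.54 ± 0.07 and BHLHE41 fell by 0.60. CRY1 fell by 0.21, a call lost under 10 of the alternatives, and PER3, CRY2, NR1D1, NR1D2, RORA and RORB did not pass.

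The second comparison asked how the putamen differed between day libraries (ZT0 to ZT10, 6 animals) and night libraries (ZT12 to ZT22, 6 animals). No gene of 11866 was called by limma (0%), the smallest adjusted p being 0.26, whereas 2222 genes had an unadjusted p under 0.05 (18.7%): 1376 higher by day (11.6%) and 846 lower (7.13%). That number depended on single animals: it was 3606 without ZT0, 1227 without ZT2, 1369 without ZT4, 1103 without ZT6, 1161 without ZT16 and 1209 without ZT18, and 4126 without both border times, ZT0 and ZT12. The balance depended on scaling too, with 1335 higher and 311 lower genes when scaled by reads outside mitochondrial genes (median difference of all genes 0.09, against -0.04). Of 18 clock genes, PER2 was the one whose groups did not overlap, at 5.59 to 7.03 FPKM (median 6.44) in day libraries and 3.26 to 5.07 FPKM (median 4.63) in night libraries. Its difference was 0.52 ± 0.16 on the log2 scale, day minus night. An exact 2-sided permutation test over the 924 divisions of 12 animals into 6 and 6 gave p = 0.0022 for PER2, the smallest it can give, with an adjusted p of 0.26 by limma. NQO2, CD34, TNFSF10, LIAS, SH3BGRL and CD46, named below, had the same permutation p. How many of all genes separate the groups was not counted, so whether PER2 stands out among them cannot be told. The pallidum of the same animals showed a PER2 difference of 0.40.

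Other clock genes had overlapping groups. PER1 was at 2.41 to 8.16 FPKM (median 4.26) by day and 0.988 to 4.39 FPKM (median 2.48) by night (0.77 ± 0.34, exact permutation p = 0.065), with its peak at ZT2. DBP, a direct target of the clock, was at 20.5 to 94.4 FPKM (median 45.3) by day and 16.1 to 37.8 FPKM (median 25.4) by night (0.82 ± 0.38). ARNTL, which PER proteins oppose, was at 12.5 to 24.5 FPKM (median 17.0) by day and 16.7 to 28.1 FPKM (median 24.6) by night (-0.41 ± 0.18, exact permutation p = 0.054). CRY2, NR1D2 and BHLHE41 differed by 0.48 ± 0.19, -0.67 ± 0.29 and -0.51 ± 0.22. PER1, PER2, CRY2 and DBP thus had higher medians by day and ARNTL, NR1D2 and BHLHE41 by night. Of these clock genes only PER2 separated the groups, with no share over all genes to set beside it. The adjusted p of each was 0.26 or 0.27 by limma.

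**Figure D5:**
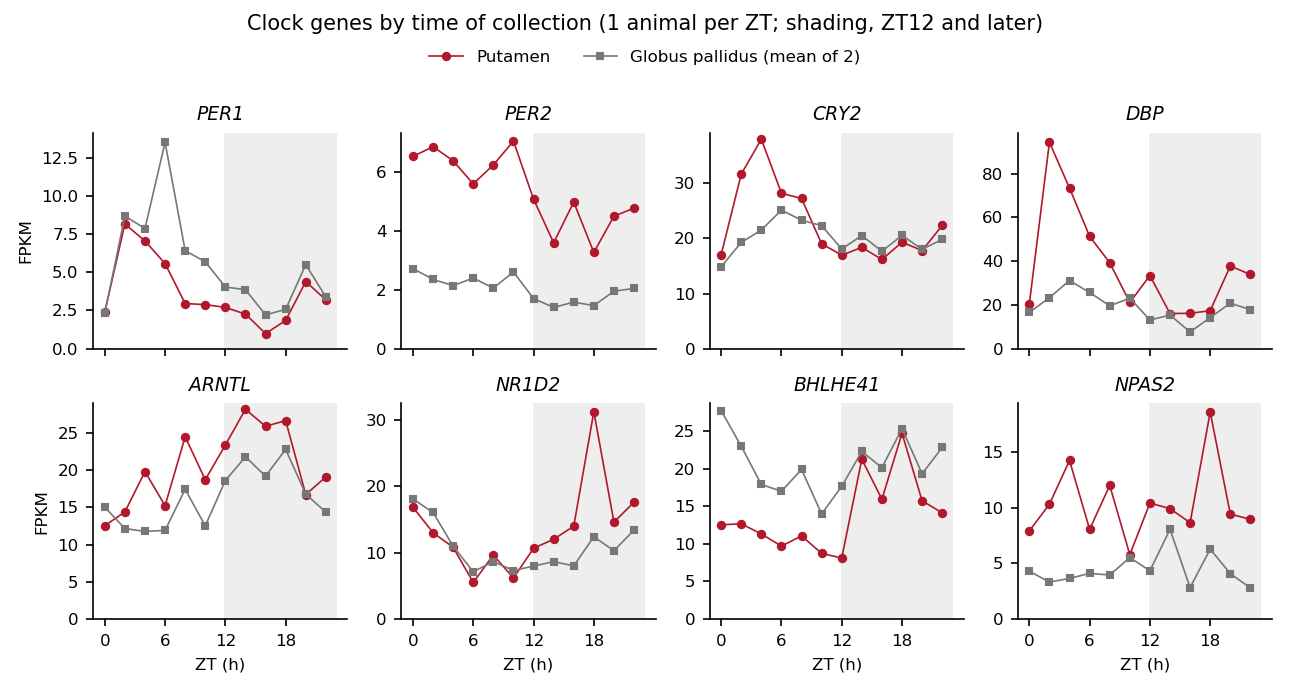
FPKM of 8 clock genes (y axes) against the ZT (h) of the animal, in putamen (red circles) and as the mean of both pallidal tissues (grey squares); each point is 1 animal and the shading covers ZT12 and later. PER2 lies between 5.59 and 7.03 FPKM in the day libraries of the putamen and between 3.26 and 5.07 FPKM in the night libraries, and NR1D2 and NPAS2 have their highest putamen level at ZT18.

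By the rule for named genes, the 8 with the smallest p and higher by day were NQO2, CBR3, RPUSD2, ASPHD2, JAKMIP1, POLR2F, ZNHIT1 and MPV17L2. NQO2 (ENSPANG00000007408), a quinone reductase, was at 15.2 to 30.5 FPKM (median 21.5) by day and 10.3 to 14.4 FPKM (median 12.3) by night (0.80 ± 0.18), without overlap. The carbonyl reductase CBR3 was at 77.5 to 139 FPKM (median 93.7) by day and 38.8 to 80.2 FPKM (median 48.3) by night (0.91 ± 0.21), with overlapping ranges, and the other 6 differed by 0.55 (JAKMIP1) to 1.41 (MPV17L2). The 8 with the smallest p and lower by day were CD34, TNFSF10, LIAS, SH3BGRL, CD46, CD38, ABCG2 and GPCPD1. CD34 (ENSPANG00000018970), a sialomucin of vascular endothelium, was at 3.81 to 7.29 FPKM (median 6.16) by day and 8.61 to 15.9 FPKM (median 9.76) by night (-0.84 ± 0.19), and ABCG2, an efflux pump of the same cells, at 18.6 to 47.6 FPKM (median 28.8) by day and 39.8 to 56.0 FPKM (median 47.3) by night (-0.70 ± 0.19). TNFSF10 (TRAIL), LIAS, which makes lipoic acid, SH3BGRL and the complement regulator CD46 did not overlap between day and night either. The choice by smallest p over the same libraries favours genes without overlap. The adjusted p of all 16 was 0.26 by limma.

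No projection neuron gene was called between day and night. DRD2 was at 53.4 to 146 FPKM (median 123) by day and 36 to 83.2 FPKM (median 65.7) by night (0.78 ± 0.29, exact permutation p = 0.041, adjusted p = 0.26 by limma). PENK was at 1469 to 2256 FPKM (median 1712) by day and 869 to 1895 FPKM (median 1284) by night (0.41 ± 0.18) and PPP1R1B at 1081 to 2189.9 FPKM (median 1774) by day and 850.5 to 1387 FPKM (median 1245) by night (0.51 ± 0.19). GAD2 stayed at 176 to 238 FPKM (median 201) by day and 203 to 234 FPKM (median 226) by night (-0.13 ± 0.11), and PDE10A differed by -0.70 ± 0.46, with its ZT18 value in the night group. Over the 22 medium spiny neuron genes the median difference was 0.18, against -0.04 over all genes. Of the 22, 4 had an unadjusted p under 0.05 by limma, as did 18.7% of all genes. A score shared by brain libraries, the first principal component of 227 libraries of the other brain tissues after each tissue's mean was removed (31.4% of the variance over 8444 genes), moved with these groups, and its part in the result was not tested beyond the covariate below: -0.99 to 1.89 by day (median 0.90) and -1.47 to 0.12 by night (median -0.41). With this score as a covariate 283 genes had an unadjusted p under 0.05, in place of 2222. The 227 libraries came from the same animals and times, so the score cannot be told apart from time or animal effects shared by brain tissues.

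Whether day and night differed by other amounts in putamen than in pallidum was tested on the paired differences. No gene was called (0%, limma, 12380 genes), and 782 had an unadjusted p under 0.05 (6.32%), 180 with a more positive day minus night difference in putamen (1.45%) and 602 with a more negative one (4.86%). This split depended on scaling: it was 386 and 178 with scaling by reads outside mitochondrial genes (median over all genes 0.15, against -0.04), 365 and 324 with quantile scaling and 285 and 513 with median-of-ratios scaling. Leaving out ZT10 gave 1414 genes (679 and 735) and leaving out ZT18 gave 514 (142 and 372). The 5 genes named by rule were NR1D2, TDRP, MRPL3, BROX and FAM210B. NR1D2 (REV-ERB beta) differed by -0.67 between day and night in putamen and by 0.09 in pallidum, a difference of -0.76 ± 0.17 with an adjusted p of 0.70 by limma. The values of the other 4 between tissues ran from -1.02 (TDRP) to -0.62 (MRPL3), all with a smaller day level relative to night in putamen.

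A cosine fit of 24 h over the 12 putamen libraries called 1549 of 11866 genes (13.1%) by limma, and 4437 (37.4%) had an unadjusted p under 0.05. Of the 1549 peaks, 1143 fell between ZT2 and ZT8 and 340 between ZT14 and ZT20, together 95.7%. The share of fitted peaks at these times over all 11866 genes was not counted. In putamen the shared library score was likewise highest at ZT2 (1.89) and lowest at ZT16 (-1.47), and its part in the peak times was not tested. The median fitted peak of the called genes was 2.65 times the trough, against 1.68 times over all 11866 genes. The 5 genes named by rule, CBR3, TMEM222, ZNF511-PRAP1, HAGHL and ATG101, all peaked between ZT4 and ZT6; ATG101, which acts in autophagy, had a peak 3.18 times its trough at ZT5.01. Among clock genes 4 were called: DBP had a peak over trough of 3.45 at ZT3.64, PER1 of 2.94 at ZT3.52, CRY2 of 1.84 at ZT4.25 and NR1D2 of 2.76 at ZT19.9. ARNTL, with a fitted peak at ZT13.9, had an adjusted p of 0.053 by limma and was called under 5 of 21 alternatives (adjusted p of 0.029 to 0.62 over them). None of the 4 calls held under every alternative: DBP was called under 11 of 21 alternatives, PER1 under 8 of 20, CRY2 under 8 of 21 and NR1D2 under 12 of 21. With the shared library score as a covariate the fitted log2 amplitude, the distance of the peak from the mean, was 0.27 for DBP (0.89 without the score), 0.25 for PER1 (0.78), 0.18 for CRY2 (0.44) and 0.65 for NR1D2 (0.73). Of the 22 medium spiny neuron genes 4 were called, and of the 5 indirect-pathway genes 2; DRD2, PPP1R1B and RASD2 among them had fitted peaks at ZT5.20, ZT5.41 and ZT5.09. With the library score as a covariate their amplitudes were 0.12 for DRD2 (0.76 without the score), 0.12 for PPP1R1B (0.48) and 0.07 for RASD2 (0.57), and none was called. They were called under 12, 11 and 10 of 21 alternatives.

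The count of rhythm calls depended on the settings. No gene was called without the variance trend of limma (4317 at an unadjusted p under 0.05) or with the shared library score as a covariate (910), and 1 was called with no filter on low levels. Leaving out a single library gave 0 calls without ZT6, ZT16, ZT18 or ZT22, 1 without ZT2 and 2 without ZT4, against 3609 without ZT0, 1020 without ZT12 and 832 without ZT14. As each time is 1 animal, the cosine fit cannot tell a rhythm from a difference between animals. The library score, taken from the same animals and times, may hold either, so fits with it cannot separate them.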

How the data were processed

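RNA-seq of polyA RNA (stranded TruSeq libraries, per the labels' protocols) was deposited by the authors as 1 table of FPKM for 29202 genes with Ensembl identifiers in 767 libraries. STAR, featureCounts and DESeq2 are listed in the submitters' processing notes, with no version or role given, and the genome build is not given in the sources used here. Of the columns, 264 from 22 brain tissues were used and 503 were not. FPKM values were whole multiples of a step per gene and library (100% within 0.01 read), from which reads on genes were recovered.

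Genes with a mean of at least 1 FPKM were tested with limma 3.58.1 (R 4.3.3, moderated with a variance trend) on log2(FPKM + 0.5), with Benjamini-Hochberg adjustment over all genes tested. The tissue comparison used differences within animals. The labels give 1 animal per time, which pairs the tissues: deviations from tissue means correlated with medians of 0.335 (putamen and lateral), 0.300 (putamen and medial) and 0.402 (lateral and medial) between libraries of the same ZT, against -0.034 to -0.022 for different ZT. In putamen, ZT0 to ZT10 was tested against ZT12 to ZT22, then a 24 h cosine, and the day and night difference was compared between tissues on the paired values. Animals are replicates of a tissue but not of a time.

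The groups, gene lists and tests were chosen with earlier results of these data known. Genes named outside the lists were those with the smallest p at 5 FPKM or more: 12 in each direction between tissues with a log2 difference of at least 2, 8 in each direction between day and night, 5 for the difference between tissues and 5 for the rhythm. Alternatives changed the added constant (0.1 and 1), the filter, the scaling, the pallidal tissue, the pairing, the variance trend, a covariate and each animal left out; limma voom on recovered reads and scaling by reads outside mitochondrial genes were added after seeing the data. Results for some listed genes are not reported here. The test code was tested on simulated data. A genome was not used here, so no sequence or coordinate is given.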

Additional observations from a re-analysis of the deposited data

Results flagged for a closer look

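In groups of 6 putamen libraries, 14 values lay far from the other 5 of their group by Dixon's criterion, among 98 day and night groups compared; chance gives about 1 such group in 20. In 8 of them the night library of ZT18 was highest: PDE10A at 457 FPKM (next 113), GPCPD1 at 60.1 (next 34.2), NR1D2 at 31.2 (next 17.6), HLF at 27.1 (next 14.7), NPAS2 at 18.6 (next 10.4), RORA at 12.7 (next 2.13), CLOCK at 10.3 (next 2.92) and RORB at 6.69 (next 1.03). The same library had the highest level in 31.7% of all genes. JAKMIP1 was highest at ZT12 among night libraries, at 36.4 FPKM (next 29.1).

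Among day libraries, CRY1 at 9.67 FPKM (next 4.6) and ABCG2 at 47.6 FPKM (next 29.2) were highest at ZT0, and CD38 was highest at ZT10, at 13.2 FPKM (next 7.06). RORB was lowest at ZT10, at 0.318 FPKM (next 0.695), and LIAS was lowest at ZT6, at 3.6 FPKM (next 6.49). No explanation of these values was tested.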

How the results depend on the processing

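Between tissues, leaving out each animal gave 3249 to 3372 higher and 5334 to 5733 lower genes, and without the pairing of animals (no replicate block) there were 3007 higher and 4933 lower. A filter of 5 FPKM gave 2430 higher and 3380 lower of 7674 tested, no filter 3747 and 7007 of 20955, and voom on recovered reads 3628 and 5604. Between day and night in putamen, leaving out each animal gave 0 to 1 higher and 0 to 1 lower gene by limma (1 higher without ZT16, 1 lower without ZT20), and the other alternatives called 0. DBP changed sign with the library score as a covariate, to -0.11. The difference between tissues called 0 genes in all alternatives run. The rhythm gave 1549 genes, 1 without a filter, 989 scaled by reads outside mitochondrial genes (804 of them among the 1549), 0 without the variance trend, 0 with the library score, and 0 to 3609 with 1 animal left out; that range includes 0 without ZT6 (3346 at an unadjusted p under 0.05), ZT16 (3473), ZT18 (3778) or ZT22 (3896). The cause was not tested.

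With 1 animal per time, differences between times include those between animals, and p-values between day and night measure the spread between animals. Genes of a few reads in libraries of 3.40 to 13.6 M reads are measured with low precision. Most of these reads were mitochondrial, except in the putamen libraries of ZT4 (43.5%) and ZT18 (43.9%). Lateral pallidal libraries held 296 to 2867 FPKM of medium spiny neuron transcripts, and against this tissue alone GNG7, PDYN, GABRA5, TEF, CRY1 and PDGFRA were not called.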
